A study of Mus musculus with 4 samples.

Results

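The cells described here were Apoe-high CD11b-positive cells of the mouse cortex that carried Spp1 and, in a minority, Gpnmb transcripts. They were picked by their own read-out: a cell needed at least 500 unique molecular identifiers (UMIs, each counting 1 captured transcript), at most 10% of them mitochondrial, Apoe at 1.5% or more of UMIs, at least 1 Ms4a7 UMI, at most 2 UMIs over 4 border-macrophage genes (Lyve1, F13a1, Cd163, Cbr2), at most 4 over 5 interferon-response genes (Ifit2, Ifit3, Isg15, Rsad2, Cxcl10) and at least 8 over Spp1 and Gpnmb. This gave 90 of the 61371 cells kept in the series, 89 of them in the 2 Hevin libraries. They were set against the 12366 Apoe-high cells of the same libraries that met the other bounds with 0 Spp1 and 0 Gpnmb UMIs, called Spp1/Gpnmb-zero cells below. The 13 genes of the rule are described and not tested.

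Wild-type mice had received, by intracortical injection on postnatal day 0 or 1, an adeno-associated virus for Hevin or for mCherry, a fluorescent protein carried by the control animals. The promoter was GfaABC1D, which acts in astrocytes, so the virus was not aimed at the cells measured here. Hevin, encoded by Sparcl1, is a matricellular protein that astrocytes secrete and that promotes excitatory synapses. On day 15 the CD11b-positive cells were taken with magnetic beads, with Actinomycin D, Triptolide and Anisomycin (inhibitors of transcription and translation) present, and 2 PIPseq v4.0PLUS libraries were made per virus. The labels do not say whether the 2 libraries of a virus came from separate animals, so p-values cannot be taken to measure the spread between animals. In the main comparison they rest largely on counting error, as described below.

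Spp1 encodes osteopontin, a secreted phosphoprotein that binds integrins and Cd44, and Gpnmb encodes a transmembrane glycoprotein of lysosomes and the cell surface. Macrophages that take up lipid, myelin or dying cells are known to raise these genes together with Lgals3, Fabp5, Lpl, Cd9 and Cd63, and similar microglia occur around axon tracts in early postnatal life and around amyloid plaques. Genes of lysosomes carry E-box-type motifs that are bound by the MiT/TFE factors (Mitf, Tfeb, Tfe3), and Gpnmb is a known target of Mitf. Atf3, the third gene by which these cells had been described, encodes a stress-induced transcription factor of the ATF/CREB family.

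The promoter windows of the genes that define and lead the group are shown because the higher genes below included several of lysosomes. Each holds the 250 bases before the RefSeq transcription start (build GRCm38.p6), 5′ to 3′ on the strand of the gene. Capitals mark matches, on either strand, to any of 5 motifs: TCACGTG and TCATGTG (E-box types bound by MiT/TFE factors), TGANTCA (the AP-1 type), TGACGTCA (the cyclic-AMP response type bound by ATF/CREB factors) and AACCACA (the Runx type, added after these windows had been read). Spp1 lies at chr5:104434861-104435110 (plus strand), Gpnmb at chr6:49036268-49036517 (plus strand) and Gla, the gene of the lysosomal alpha-galactosidase A, at chrX:134601006-134601255 (minus strand).
Spp1: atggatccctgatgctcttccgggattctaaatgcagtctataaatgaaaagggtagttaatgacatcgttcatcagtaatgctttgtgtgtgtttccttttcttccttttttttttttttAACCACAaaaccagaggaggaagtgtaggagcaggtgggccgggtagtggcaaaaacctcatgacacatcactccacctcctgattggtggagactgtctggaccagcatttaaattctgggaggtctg
Gpnmb: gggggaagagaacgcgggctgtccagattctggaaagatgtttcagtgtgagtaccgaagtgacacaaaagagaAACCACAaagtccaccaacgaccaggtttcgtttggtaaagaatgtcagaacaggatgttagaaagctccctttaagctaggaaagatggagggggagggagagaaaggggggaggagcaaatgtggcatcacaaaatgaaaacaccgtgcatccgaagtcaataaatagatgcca
Gla: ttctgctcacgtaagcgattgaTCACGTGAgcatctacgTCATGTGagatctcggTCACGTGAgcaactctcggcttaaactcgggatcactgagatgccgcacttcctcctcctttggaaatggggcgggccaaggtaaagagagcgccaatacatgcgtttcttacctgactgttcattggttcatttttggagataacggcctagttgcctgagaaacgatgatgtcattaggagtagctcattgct

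The Gla window held E-box-type letters at 3 places. TCACGTG began 228 and 195 bases before the start, where it overlapped its own match on the opposite strand, and TCATGTG began 211 bases before the start. TCACGTG occurred in 3.13% and TCATGTG in 3.25% of the 32851 mouse promoter windows of the same length. The Spp1 and Gpnmb windows each held 1 AACCACA match, 129 and 176 bases before the start. This motif was added after these windows had been read, so its presence in both is a description and no test. It occurred in 4.40% of all windows. Of 17 genes looked up (Spp1, Gpnmb and the 15 of largest fold change below), 12 had a RefSeq window, and Anxa2 was the other one with a match, to TGANTCA, which 6.75% of all windows held. TGACGTCA (1.55% of windows) and a sixth motif that was searched, a nuclear receptor direct repeat (0.0335%), were not found in any of the 12, which says nothing of whether such factors bound there.

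The group was led by Spp1 far more than by Gpnmb. Spp1 made up 95.7% of the summed Spp1 and Gpnmb UMIs, was present in all 89 cells, and ran from 6 to 127 UMIs per cell in Hevin replicate 1 (median 13.5) and from 2 to 98 in replicate 2 (median 11). Gpnmb was found in 18 of 52 cells in replicate 1 (34.6%, 95% exact binomial interval 22 to 49.1) and in 12 of 37 in replicate 2 (32.4%, 18.0 to 49.8), and 59 of the 89 cells had none. In homeostatic microglia of the same libraries, 0.423% and 0.387% of cells had a Gpnmb UMI, at medians of 2089 and 3257 UMIs per cell against 4942.5 and 4989 in the Spp1-positive cells. Of the 89 cells, 81 reached the bound by Spp1 alone and 3 by Gpnmb alone, and 7 held 4 or more Gpnmb UMIs. The label of Spp1-Gpnmb cells therefore fits 30 cells by both genes, and the group is called Spp1-positive Apoe-high cells here. Intervals cover counting error only.

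**Figure D1:**
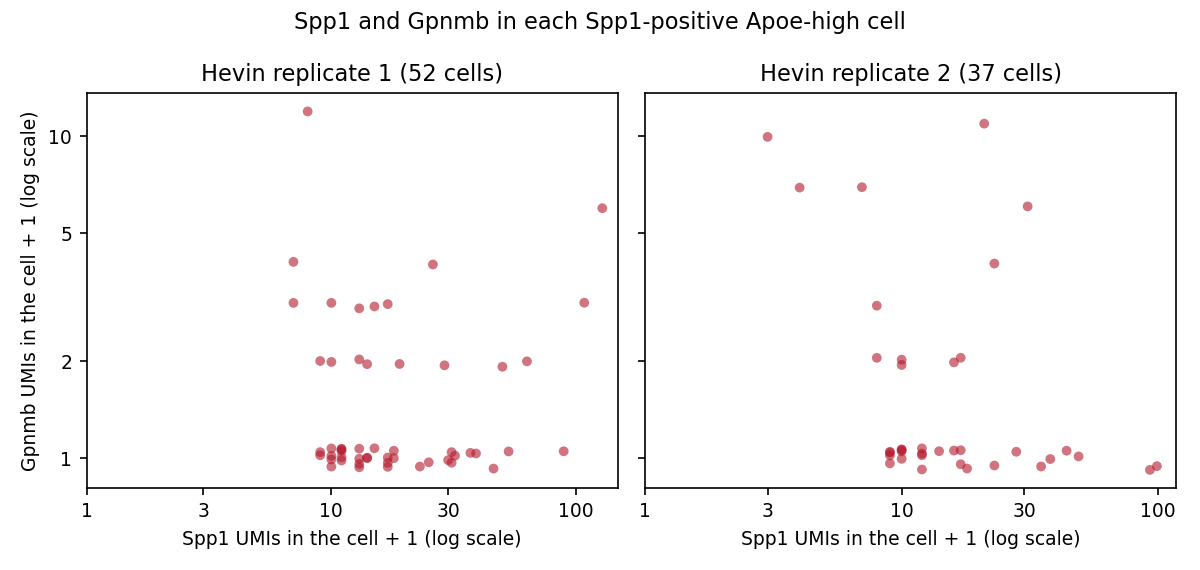
Spp1 (horizontal) and Gpnmb (vertical) UMIs plus 1 in each of the 52 and 37 Spp1-positive Apoe-high cells of the Hevin libraries, on log axes, with points shifted slightly up or down so that they can be told apart. The row at 1 is the 59 cells without a Gpnmb UMI, and they run from 8 to 98 Spp1 UMIs.

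The share of Apoe-high cells that met the Spp1 and Gpnmb bound was close in the Hevin libraries: 52 of 8277 in replicate 1 (0.628%, 95% exact binomial interval 0.470 to 0.823) and 37 of 5036 in replicate 2 (0.735%, 0.518 to 1.01). The mCherry libraries had 30 and 21 Apoe-high cells by the same bounds, of which 1 and 0 qualified, too few for any comparison of shares. The single mCherry cell had 11734 UMIs, with 95 of Spp1 and 72 of Gpnmb. The bound at 8 divides a continuous range: 28 cells of the Hevin libraries held 8 to 10 UMIs, just inside, and 43 held 5 to 7, just outside. Another 10 and 13 cells of the Hevin libraries, and 11 and 6 of the mCherry libraries, had 8 or more Spp1 and Gpnmb UMIs but failed another bound. Of these, 6 and 3 in the mCherry libraries and 0 in both Hevin libraries counted as homeostatic microglia (P2ry12 and Tmem119 summing to 5 or more UMIs, Apoe under 1.5%, no Ms4a7 and the same limits on border and interferon genes). The mCherry libraries held 14967 and 9226 such microglia and the Hevin libraries 5197 and 4914. Their medians were 3264 and 3964.5 UMIs per cell in the mCherry and 2089 and 3257 in the Hevin libraries. These counts are too few for a comparison of the viruses.

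The deposited libraries held 52707417 to 55629684 UMIs in the Hevin group and 49781430 to 67832685 in the mCherry group, in 13077 to 19855 and 10877 to 17877 barcodes. At most 7 barcode sequences were shared by any 2 libraries. The Spp1-positive cells were deeper than the Spp1/Gpnmb-zero cells, whose medians were 2671 and 3542 UMIs per cell. Scrublet called 1.45% and 2.11% of the kept Hevin cells doublets. It called 0 of the 52 and 37 Spp1-positive cells, against 116 of 7687 and 117 of 4679 Spp1/Gpnmb-zero cells. At such rates the Spp1-positive cells are too few for the absence of calls to show that they hold no doublets. In replicate 2, 1 of them lay in the top 5% of doublet scores. This caller marked 0.0112% and 0.0184% of the mCherry cells, which is too few for it to have worked there.

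Genes of brain macrophages were present. C1qa, a complement subunit of brain macrophages, stood at 6882 and 8074 CPM (the UMIs of a gene per 1e+06 UMIs of the summed cells) in the Spp1-positive cells of replicates 1 and 2, against 7414 and 8061 CPM in Spp1/Gpnmb-zero cells. Sall1, a transcription factor of microglia, was found in 6 of 52 (11.5%) and 6 of 37 (16.2%) Spp1-positive cells. The shallower Spp1/Gpnmb-zero cells had it in 6.91% and 8.95% and border macrophages in 9.51% and 11.7%, against 37.4% and 59.0% of homeostatic microglia of the same libraries. P2ry12, a purine receptor of microglia, had levels of 509 and 590.3 CPM, against 4145 and 4577 CPM in those microglia. It was found in 82.7% and 86.5% of the Spp1-positive cells, close to the 81.9% and 89.4% of border macrophages (medians 3186 and 4504 UMIs per cell), a type that should lack it, so this level cannot be told apart from free RNA. The rule genes Apoe (32560.0 and 35509 CPM, against 35196 and 36623) and Ms4a7 (1282 and 1581 CPM, against 1158 and 1233) lay at similar levels in both sets.

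Counts summed per library were compared between the Spp1-positive and the Spp1/Gpnmb-zero cells with edgeR's quasi-likelihood test, with the library as a block. The genes tested were not used by the rule, but they were read in the same cells that it picked. Of 13426 genes tested, 731 (5.44%) passed an adjusted p of 0.05: 286 (2.13%) were higher and 445 (3.31%) lower in the Spp1-positive cells. Size factors by the RLE method gave 364 higher and 293 lower, and library totals gave 329 and 337, so the balance of directions depended on the scaling. With the 2 libraries as a block there was 1 residual degree of freedom, the fitted spread was close to counting error, and p-values rest largely on counting error. In cells of 3000 to 10000 UMIs, where the depths of the sets come closer, 216 genes were higher and 405 lower, and the 14 tested genes among the 15 of largest fold change all kept their call. The median log2 fold change of all tested genes was -0.16.

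The largest increases included a carbohydrate-binding lectin and several genes of lipid handling. Lgals3, which encodes galectin-3, a lectin of phagocytes, had 144 and 70.0 CPM in the Spp1-positive cells and 6.20 and 5.89 CPM in the Spp1/Gpnmb-zero cells (a log2 difference of 4.09 ± 0.42 SE, adjusted p = 2.9e-19 by edgeR). Fabp5, a carrier of fatty acids in the cytosol, had 466 and 260.1 CPM, against 36.7 and 25.8 CPM (3.48 ± 0.18, adjusted p = 1.0e-78). Both libraries put each gene well above its level in the Spp1/Gpnmb-zero cells. Fabp5 was found in 30 and 19 of the Spp1-positive cells, and Lgals3 in 13 and 6.

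Cd36, a scavenger receptor for oxidised lipoproteins and fatty acids, had 109 and 135 CPM in the Spp1-positive cells and 20.1 and 16.7 CPM in the Spp1/Gpnmb-zero cells (a log2 difference of 2.65 ± 0.31 SE, adjusted p = 3.6e-15 by edgeR). Apoc4, an apolipoprotein gene of the Apoe cluster, had 182.5 and 130.1 CPM, against 25.9 and 32.5 CPM (2.40 ± 0.24, adjusted p = 2.3e-20). Lpl, the lipoprotein lipase, had 117 and 35.0 CPM, against 10.7 and 6.26 CPM (3.07 ± 0.45, adjusted p = 1.5e-09). Of the Lpl UMIs, 54.1% came from 1 cell, and without that cell the log2 ratio was 2.10; in cells of 3000 to 10000 UMIs the log2 fold change was 1.98. Plin2, which coats lipid droplets, had 182.5 and 195 CPM, against 66.3 and 66.8 CPM (1.44 ± 0.20, adjusted p = 1.8e-10). Of 17 tested genes of lipid droplets and fatty acid handling, 5 were higher and 0 lower (2.13% of all genes were higher), and the list's median log2 fold change was 1.10.

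Other genes of the 15 with the largest change had roles in signalling, redox chemistry and the cytoskeleton. Csf1, a ligand of the receptor Csf1r, had 42.7 and 30.0 CPM, against 3.91 and 4.51 CPM in the Spp1/Gpnmb-zero cells (a log2 difference of 3.07 ± 0.71 SE, adjusted p = 0.00074 by edgeR). Ccl4, a chemokine, had 54.4 and 140.1 CPM, against 11.4 and 9.23 CPM (3.10 ± 0.42, adjusted p = 2.8e-11), but was found in 4 and 7 cells, 1 of which held 42.9% of its UMIs. Among the rest were Mgst1, a microsomal glutathione S-transferase (2.37 ± 0.29), Gsr, glutathione reductase (2.36 ± 0.50), Anxa2, annexin A2 (2.36 ± 0.65), Gas2l3, a linker of actin and microtubules (2.25 ± 0.55), Lilrb4b, an immunoglobulin-like receptor (2.15 ± 0.50), and Gm1673 (2.59 ± 0.45), with adjusted p from 3.1e-13 to 0.008. With Gla and Atf3 below they make up the 15, whose sums did not overlap between the cell sets, as the rule for naming them required.

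**Figure D2:**
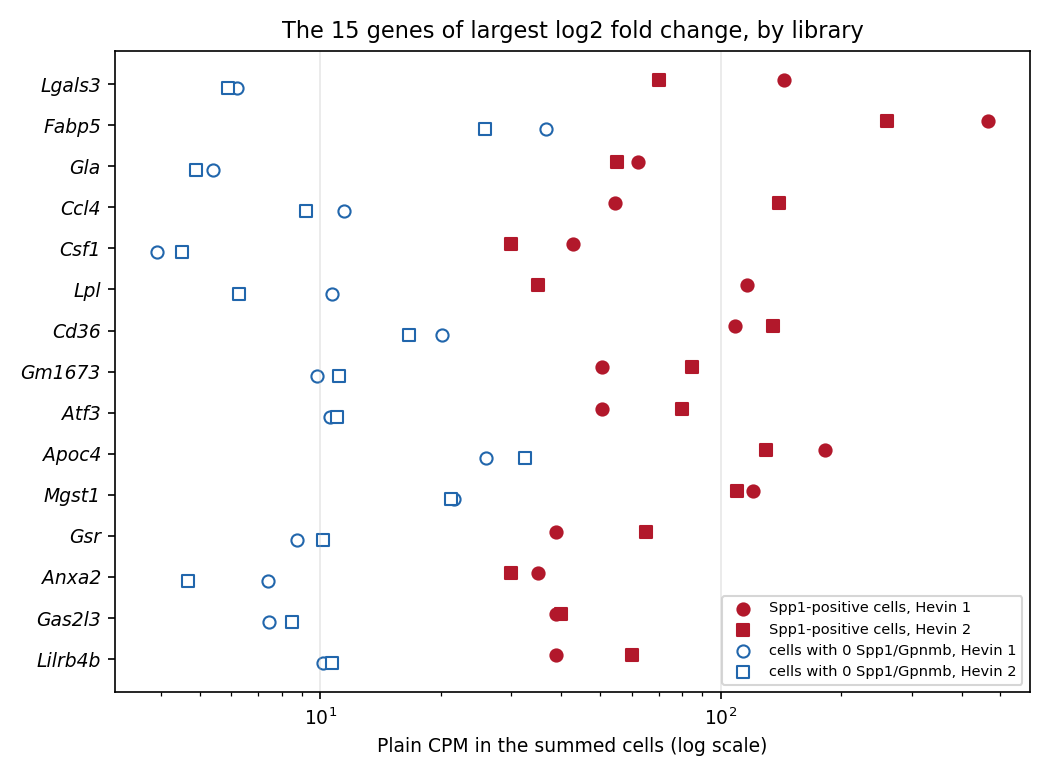
Plain CPM (horizontal, log scale) of the 15 genes of largest log2 fold change in the summed Spp1-positive cells (filled) and Spp1/Gpnmb-zero cells (open) of Hevin replicates 1 (circles) and 2 (squares). In every gene both filled points lie to the right of both open points, with Fabp5 at 466 and 260.1 CPM, against 36.7 and 25.8 CPM.

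Atf3 is given as a description, since the cells had been described by it. It had 50.5 and 80.0 CPM in the Spp1-positive cells and 10.6 and 11 CPM in the Spp1/Gpnmb-zero cells, a log2 fold change of 2.5. It was a gene of few cells: 6 of 52 and 8 of 37 Spp1-positive cells had an Atf3 UMI, and 6 of these 14 also had Gpnmb. Among 19 tested genes of the integrated stress response, to which Atf3 is linked, 0 were higher and 1 was lower (Ddit4, 42.7 and 35.0 CPM, against 72.6 and 78.0 CPM). Atf4, the central transcription factor of that response, had 113 and 145 CPM, against 94.0 and 89.5 CPM, and did not pass the test. The call of Ddit4 was lost under both other scalings, and 3.31% of all genes were lower.

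Genes that mark disease-associated microglia and lipid-associated macrophages were higher as a list: 14 of 25 tested members rose, 0 fell, and the median log2 fold change was 1.05, beside 2.13% higher among all genes. Cd9 and Cd63, tetraspanins of the cell surface and of late endosomes, were among them. Cd9 had 1418 and 1266 CPM in the Spp1-positive cells and 335 and 312 CPM in the Spp1/Gpnmb-zero cells (1.99 ± 0.09, edgeR adjusted p = 1.0e-95), and Cd63 had 4866 and 5133 CPM, against 1589.7 and 1530.5 CPM (1.62 ± 0.08, adjusted p = 2.0e-92). Trem2, the lipid-sensing receptor whose signalling such cells need, was higher by a smaller step, at 1969 and 1931 CPM, against 1423 and 1417 CPM (0.40 ± 0.08, adjusted p = 0.00015). Igf1, a growth factor, had 284 and 390.2 CPM, against 129 and 130.1 CPM (1.29 ± 0.15). Axl, a receptor of dying cells on the same list, had 299 and 365 CPM, against 244 and 302 CPM, and did not pass.

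Lysosomal genes were higher in the same cells. Of 27 tested genes of the MiT/TFE lysosome list, 11 rose and 0 fell (median log2 fold change 0.43), and of 16 subunits of the V-ATPase, the proton pump that acidifies lysosomes, 8 rose and 0 fell (median 0.49), beside 2.13% higher and 3.31% lower among all genes. Gla had the largest change of the first list, with 62.1 and 55.0 CPM in the Spp1-positive cells and 5.40 and 4.88 CPM in the Spp1/Gpnmb-zero cells (3.45 ± 0.56, edgeR adjusted p = 1.1e-07). It was found in 11 of 52 and 9 of 37 cells. Acp5, a tartrate-resistant acid phosphatase, had 27.2 and 45.0 CPM, against 7.22 and 14.2 CPM (1.71 ± 0.55, adjusted p = 0.039, or 0.071 with 5 cell sets in 1 fit), and the lysosomal acid lipase gene Lipa had 159 and 240.1 CPM, against 79.0 and 94.2 CPM (1.12 ± 0.19, adjusted p = 5.3e-07).

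The proteases Ctsb (3464 and 4172 CPM, against 1767 and 1788 CPM; log2 difference 1.03) and Ctsd (6322 and 7174 CPM, against 3450.0 and 3698 CPM; 0.85) were higher in every sum of the Spp1-positive cells. Atp6v1a, the catalytic subunit of the V-ATPase, had 330.1 and 380.2 CPM in the Spp1-positive cells and 162 and 151 CPM in the Spp1/Gpnmb-zero cells (1.11 ± 0.14, edgeR adjusted p = 2.4e-12). The transcription factor genes Mitf, Tfeb, Tfec and Tfe3 did not pass the test, with log2 fold changes from -0.14 to 0.52. Of 16 autophagy genes, 2 rose, the Atg8 family members Gabarap (0.58 ± 0.11) and Gabarapl1 (1.29 ± 0.39), and 0 fell. The shares among all genes were 2.13% higher and 3.31% lower.

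Genes of the oxidative stress response rose in part, with 9 of 18 tested Nrf2 targets higher and 0 lower (median log2 fold change 0.64). The shares among all genes were 2.13% higher and 3.31% lower. Hmox1, which encodes the haem-degrading enzyme haem oxygenase 1, had 206 and 260.1 CPM in the Spp1-positive cells and 77.2 and 75.8 CPM in the Spp1/Gpnmb-zero cells (1.53 ± 0.18, edgeR adjusted p = 4.7e-14). Prdx1, a peroxiredoxin, had 1418 and 1541 CPM, against 489 and 449.7 CPM (1.59 ± 0.09, adjusted p = 1.4e-65). The ferritin chains, which store iron, were higher too: Ftl1 had 6443 and 6574 CPM, against 2848 and 2621 CPM (1.19 ± 0.08, adjusted p = 3.8e-51), and Fth1 had 8416 and 8429.5 CPM, against 5195 and 4788 CPM (0.69 ± 0.08, adjusted p = 3.4e-17). Ftl1 shares reads with near-identical pseudogenes, so its value is uncertain. Of the 12 iron genes, 3 rose (both ferritin chains and Hmox1) and 3 fell, the ferroxidases Cp and Heph and the iron regulator Hfe, of which Heph kept its call under both other scalings and Cp and Hfe lost theirs. The gene lists of this report overlap in their members, so their counts are not independent of each other.

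Genes of energy metabolism were higher in part. Of 19 glycolysis and hypoxia genes, 9 rose and 0 fell (median log2 fold change 0.84), beside 2.13% higher and 3.31% lower among all genes. Mif, a cytokine-like tautomerase induced by hypoxia, had 469.9 and 485 CPM in the Spp1-positive cells and 113 and 109 CPM in the Spp1/Gpnmb-zero cells (2.04 ± 0.14, edgeR adjusted p = 1.9e-46), and Pgk1, phosphoglycerate kinase, had 136 and 120.1 CPM, against 43.3 and 40.6 CPM (1.55 ± 0.24, adjusted p = 2.8e-08). Of 78 nuclear genes of oxidative phosphorylation, a list added after the data had been seen, 26 rose and 2 fell (median 0.40), or 39 and 1 by RLE factors. Ndufc1, of complex I, showed 0.92 ± 0.16 and Cox7b, of complex IV, 0.86 ± 0.14, while Cox7a2l, an assembly factor, was lower (-0.78 ± 0.14).

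Of 23 genes of matrix, wound repair and actin binding, 7 rose and 0 fell (median log2 fold change 0.21). The shares among all genes were 2.13% higher and 3.31% lower. Besides Lgals3 and Anxa2 they included Lgals1, galectin-1, with 291 and 330.2 CPM in the Spp1-positive cells and 68.0 and 72.0 CPM in the Spp1/Gpnmb-zero cells (2.08 ± 0.17, edgeR adjusted p = 3.6e-31), and Vim, the intermediate filament vimentin, with 62.1 and 100.1 CPM, against 23.5 and 24.0 CPM (1.67 ± 0.33, adjusted p = 2.4e-05). Inflammatory genes did not move as a group: of 20 NF-kappa-B and cytokine genes, 2 rose (Ccl3 and Ccl4) and 2 fell (Ccl12 and Nfkb1). Ccl12, a chemokine that binds Ccr2, had 567 and 695 CPM, against 1154 and 1139.9 CPM (-0.94 ± 0.10, adjusted p = 8.3e-17). Ccl3 had 42.7 and 130.1 CPM, against 25.0 and 28.2 CPM (1.55 ± 0.31, adjusted p = 5.3e-05).

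Genes of resting microglia were lower. Of 18 homeostatic microglia genes, 11 fell and 0 rose (median log2 fold change -0.44), beside 3.31% lower among all genes, and 7 or 8 fell under the other scalings. Of the 11, Sparc and Siglech were lower in replicate 1 and at the level of the Spp1/Gpnmb-zero cells in replicate 2. P2ry12, at the level of border macrophages given above, had 509 and 590.3 CPM in the Spp1-positive cells and 1009 and 1061 CPM in the Spp1/Gpnmb-zero cells (-0.98 ± 0.11, edgeR adjusted p = 3.3e-17). Gpr34, a lysophosphatidylserine receptor, had 303 and 355 CPM, against 513 and 552 CPM (-0.76 ± 0.13, adjusted p = 2.4e-07), and Csf1r, the receptor for the ligand encoded by Csf1, had 1317 and 1641 CPM, against 1920.3 and 2192 CPM (-0.55 ± 0.09, adjusted p = 6.1e-08).

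Some genes of border-associated macrophages and of clearance were lower as well. The counts below stand beside 2.13% higher and 3.31% lower among all genes. Of 11 border macrophage genes outside the rule, 3 fell and 0 rose: the mannose receptor Mrc1, with 497 and 470.3 CPM in the Spp1-positive cells and 931 and 1042 CPM in the Spp1/Gpnmb-zero cells (-1.08 ± 0.11, edgeR adjusted p = 1.1e-19), the scavenger receptor Stab1 (-0.52 ± 0.10) and the endocytic adaptor Dab2 (-0.64 ± 0.12). Maf, a transcription factor of tissue macrophages, had 703 and 755 CPM, against 1223 and 1375 CPM (-0.89 ± 0.10, adjusted p = 2.0e-16). It belonged to 13 tested regulators that had been reported from these same samples, so that list is no independent evidence, and 4 of them fell and 0 rose. Of 15 complement genes tested, 1 rose, the receptor C5ar1 (1.03 ± 0.34), lost with 5 cell sets in 1 fit (adjusted p = 0.092), and 2 fell, among them the integrin chain Itgam (-0.69 ± 0.15).

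Of 15 phosphatidylserine receptors and scavengers, 2 rose (Cd36, and Cd300a at 0.74 ± 0.18) and 2 fell (Stab1, and the receptor kinase Mertk at -0.49 ± 0.13). The shares among all genes were 2.13% higher and 3.31% lower. Of 15 genes of cholesterol efflux, 3 rose (Apoc4, Npc2 and Apoc2, the last lost with 5 cell sets in 1 fit at an adjusted p of 0.071) and 1 fell, the transporter gene Abca9 (54.4 and 40 CPM in the Spp1-positive cells, against 112.6 and 129 CPM). The 15 genes with the largest decreases, which included Cmah, Pde4b, St3gal4 and Zfp609, rested on 1 to 6 UMIs each over all Spp1-positive cells. Cmah, a hydroxylase of sialic acid, had 15.5 and 10.0 CPM, against 67.0 and 76.6 CPM (a log2 difference of -2.5 ± 0.44 SE, adjusted p = 1.5e-06 by edgeR). Pde4b, a phosphodiesterase that degrades cyclic AMP, had 7.77 and 15.0 CPM, against 66.8 and 47.7 CPM (-2.47 ± 0.49, adjusted p = 3.0e-05).

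Ribosomal protein genes, the second list added after the data had been seen, were lower by a small step: 47 of 82 fell, 1 rose, and the median log2 fold change was -0.30, with 28 lower by RLE factors and 36 by library totals. The shares among all genes were 2.13% higher and 3.31% lower. Rpl17 had 1472 and 1141 CPM in the Spp1-positive cells and 2143 and 1983 CPM in the Spp1/Gpnmb-zero cells (-0.72 ± 0.09, edgeR adjusted p = 2.2e-13).

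No member passed the test in the lists for cholesterol synthesis (20 tested), MHC class I (11), MHC class II (7), S phase (18) and G2 and M phase (20). Cd74, the invariant chain of MHC class II, had 155 and 130.1 CPM in the Spp1-positive cells, against 190.2 and 170.3 CPM in the Spp1/Gpnmb-zero cells, and B2m, the light chain of MHC class I, had 6629 and 7004 CPM, against 6128 and 6136 CPM. Of 19 interferon-response genes outside the rule 1 fell (Ifi27l2a), and of 17 immediate early genes 1 fell (Btg2, a call lost under both other scalings), shares near the 3.31% lower among all genes. Of 8 tested receptors of osteopontin 0 passed as higher and 1 fell (Itgb5, 346 and 500.3 CPM, against 481 and 559 CPM), a call lost under both other scalings. Cd44 stood above the Spp1/Gpnmb-zero cells in both libraries (50.5 and 50 CPM, against 21.9 and 30.9 CPM) but did not pass.

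No member of the 12 lists for other cell types passed as higher in the Spp1-positive cells, and of the T or NK cell list 0 genes could be tested. Fibroblast markers were at 0 for 8 of 8 genes in both sums of Spp1-positive cells, and T or NK cell markers for 9 and 10 of 10. Summed monocyte markers stood at 11.7 and 15.0 CPM in the Spp1-positive cells, against 19.1 and 17.4 CPM in the Spp1/Gpnmb-zero cells, with 8 of 10 genes at 0 in both sums. Summed astrocyte markers stood at 179 and 130.1 CPM, against 256 and 164 CPM, with Slc1a2 lower (lost under both other scalings), and summed oligodendrocyte markers at 139.8 and 130.1 CPM, against 124 and 95.7 CPM. Summed oligodendrocyte precursor (11.7 and 10.0 CPM, against 7.69 and 3.87 CPM), neuron (58.3 and 35.0 CPM, against 42.0 and 23.4 CPM) and endothelial markers (528 and 550.3 CPM, against 484 and 429 CPM) also stood above the Spp1/Gpnmb-zero cells in both libraries, and the part of such RNA in the results was not tested. Ighm, an immunoglobulin gene, was lower (54.4 and 75.0 CPM, against 190.2 and 202 CPM) while 4 of 6 B cell markers were at 0.

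**Figure D3:**
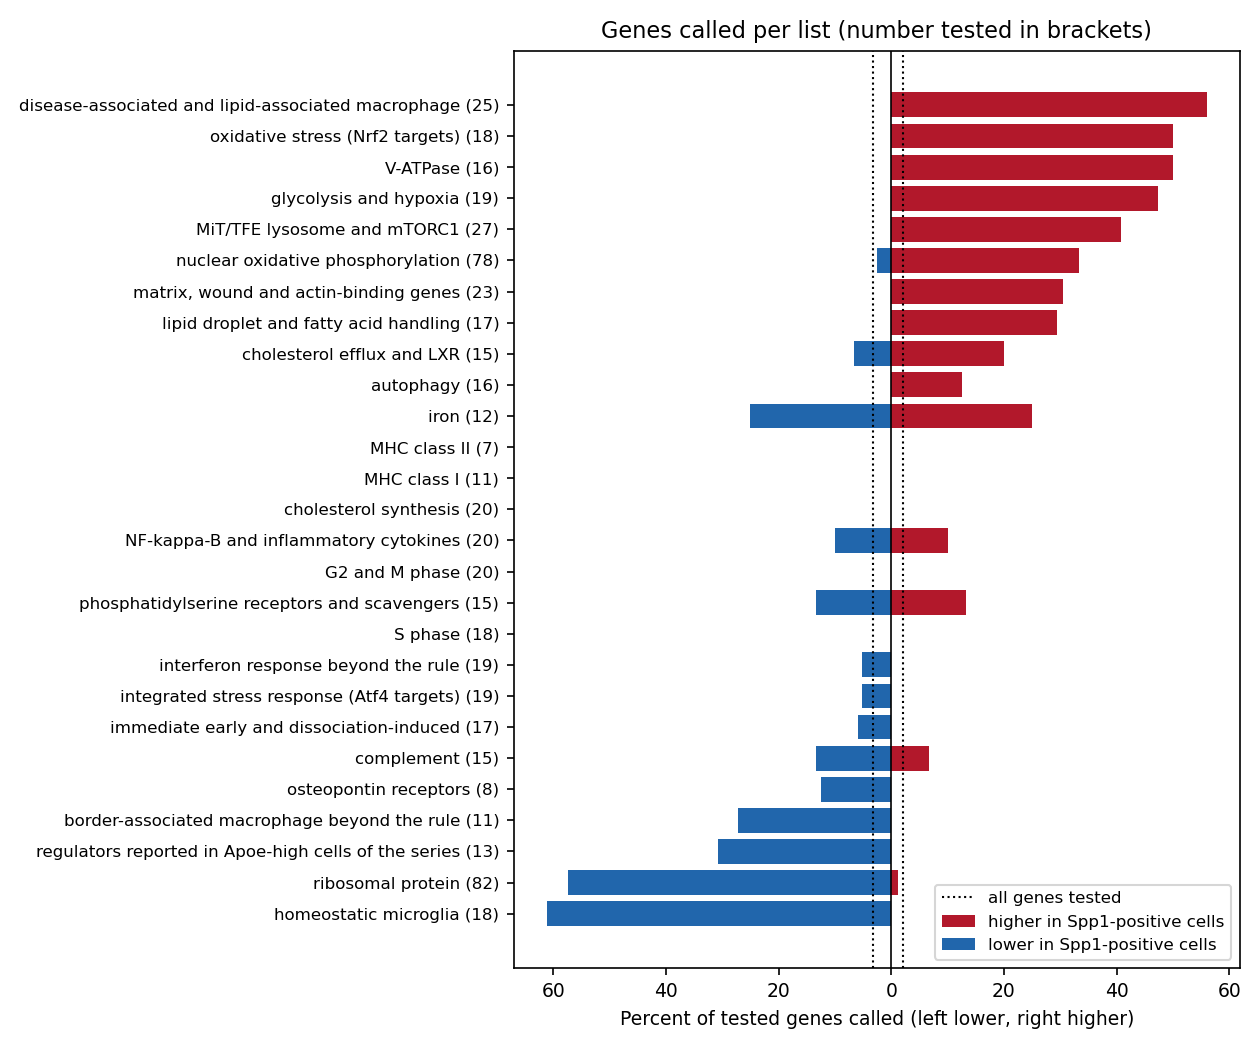
Percent of each list's tested genes that passed an adjusted p of 0.05, higher in the Spp1-positive cells to the right and lower to the left, with the number tested in brackets and dotted lines at the percents of all genes tested (2.13% higher, 3.31% lower). Disease-associated, Nrf2, V-ATPase, glycolysis and lysosome lists extend to the right and homeostatic microglia and ribosomal protein lists to the left.

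Below the bound of 8 UMIs some of the genes described above were already at intermediate levels and others were not. The Apoe-high cells of the Hevin libraries were divided by their Spp1 and Gpnmb UMIs into 0 (7687 and 4679 cells), 1 to 3 (487 and 293), 4 to 7 (51 and 27), 8 to 15 (26 and 21) and 16 or more (26 and 16). Cd63 stood at 1589.7, 2010, 3600, 3906 and 5834 CPM over these steps in replicate 1 and at 1530.5, 1936.0, 3360.5, 4041 and 6287 CPM in replicate 2. Fabp5 stood at 36.7, 82.4, 289.6, 278 and 655 CPM in replicate 1 and at 25.8, 56.0, 189, 263 and 257 CPM in replicate 2. Cells with 1 to 7 UMIs lay between the ends for Cd63 in both libraries, while Fabp5 stood between 189 and 263 CPM in the 3 highest steps of replicate 2. The last 2 steps are the Spp1-positive cells themselves. Atf3 did not follow this order, at 10.6, 11.2, 0, 15.5 and 85.8 CPM in replicate 1 and 11, 19.6, 7.57, 107 and 51.4 CPM in replicate 2. Lpl and Ccl4, with 10.6 and 10.1 CPM at 1 to 3 UMIs in replicate 1, were there no higher than at 0 UMIs (10.7 and 11.4 CPM).

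Mrc1 ran the other way, at 931, 769, 534, 572 and 421 CPM in replicate 1 and 1042, 815, 545, 458 and 484 CPM in replicate 2. Ftl1 and Cd9 stood above their level at 0 UMIs in every later step of both libraries. Median depth also differed between the steps, at 2671, 3508, 3536, 4720 and 5354.5 UMIs per cell in replicate 1 and 3542, 4099, 3759, 4118 and 6362 in replicate 2, and its part in these levels was not tested. The last step held 16 cells in replicate 2.

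**Figure D4:**
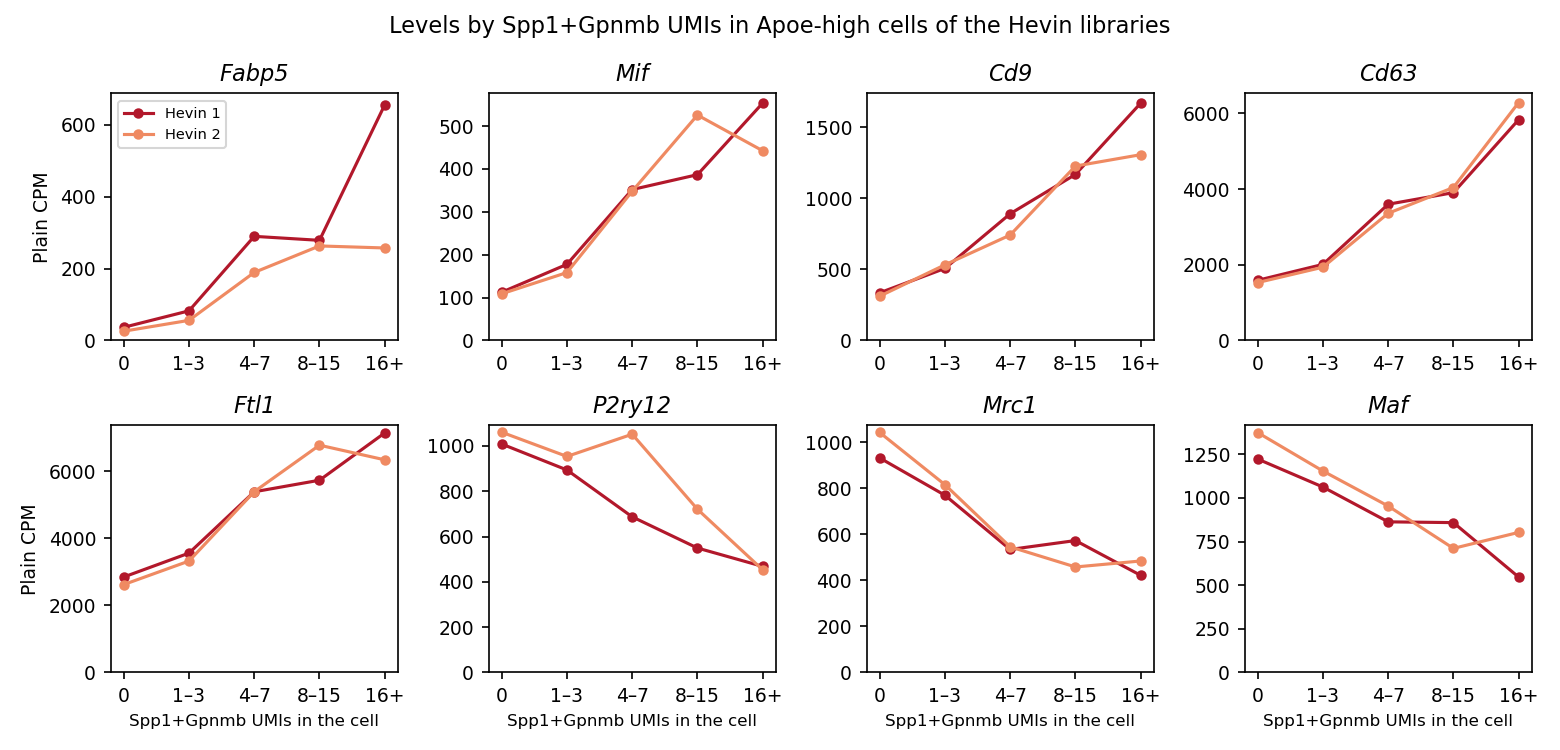
Plain CPM of 8 genes (vertical) in Apoe-high cells of Hevin replicates 1 and 2, summed by the cell's Spp1 and Gpnmb UMIs (horizontal). Fabp5, Mif, Cd9, Cd63 and Ftl1 are above their level at 0 in every later step, and P2ry12, Mrc1 and Maf are below it in the last 2 steps, with Cd63 at 5834 and 6287 CPM and Mrc1 at 421 and 484 CPM in cells of 16 or more.

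The 30 Spp1-positive cells with Gpnmb and the 59 without were too few per library for a test, so their sums are described. Fabp5 stood at 787 and 354 CPM in cells with Gpnmb, against 265 and 209 CPM in those without, and Anxa2 at 70.6 and 56.6 CPM, against 12.6 and 15.5 CPM. Lgals3 stood at 222 and 127.5 CPM, against 94.7 and 38.7 CPM. Each of these was higher with Gpnmb in both libraries. Cd63 (5053 and 5155 CPM, against 4749 and 5121 CPM) and Gla (70.6 and 70.8 CPM, against 56.8 and 46.4 CPM) lay closer together, and both were above the Spp1/Gpnmb-zero cells with or without a Gpnmb UMI. Anxa2, Lgals3 and Gla rested on few UMIs in these sums. Over all Spp1-positive cells of replicates 1 and 2, Lgals3 had 37 and 14 UMIs and Gla 16 and 11.

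The Spp1-positive cells were also set against 3 other sets of the Hevin libraries in a joint fit of 13373 genes: interferon Apoe-high cells (42 and 25 cells), border macrophages (1051 and 832) and homeostatic microglia (5197 and 4914). Against these sets 157 genes (1.17%), 822 (6.15%) and 659 (4.93%) were higher and 263 (1.97%), 912 (6.82%) and 829 (6.20%) lower in the Spp1-positive cells. Against border macrophages library totals gave 615 higher and 1258 lower, and against microglia RLE factors gave 844 higher and 639 lower. The comparisons share the Spp1-positive sums and are given side by side.

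Fabp5 was higher than in all 3, with log2 fold changes of 4.42 ± 0.39 SE against interferon Apoe-high cells, 4.06 ± 0.18 against border macrophages and 4.18 ± 0.17 against microglia (edgeR adjusted p from 2.1e-16 to 8.5e-09). Apoc4 was higher by 3.91 ± 0.65, 4.90 ± 0.35 and 5.82 ± 0.35 in the same order (adjusted p from 1.2e-12 to 0.00027), and Mif by 1.11 ± 0.19, 2.39 ± 0.13 and 1.95 ± 0.13 (adjusted p from 3.0e-13 to 0.00047). Other leading genes were shared with another set. Lpl had 117 and 35.0 CPM in the Spp1-positive cells, against 56.3 and 56.5 CPM in border macrophages and 51.9 and 49.4 CPM in microglia, and neither difference passed. Cd36 was lower than in border macrophages (109 and 135 CPM, against 219 and 214 CPM; -0.73 ± 0.20, adjusted p = 0.015).

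Hmox1 did not differ detectably from border macrophages (206 and 260.1 CPM, against 236 and 291 CPM; a log2 difference of -0.06 ± 0.17 SE, adjusted p = 0.86 by edgeR). Ccl4 and Csf1 did not differ detectably from interferon Apoe-high cells, with Ccl4 at 54.4 and 140.1 CPM, against 153 and 113 CPM (adjusted p = 0.66), and Csf1 at an adjusted p of 0.98. Gla (a log2 difference of 1.74 ± 0.68 SE, edgeR adjusted p = 0.25) and Atf3 (1.84 ± 0.63, adjusted p = 0.14) did not pass against that set either. Nor did Lpl, Gm1673, Anxa2, Gas2l3 and Lilrb4b (adjusted p from 0.053 to 0.72). Mrc1 lay between the other sets: it was lower than in border macrophages (4192 and 4699 CPM) and higher than in microglia (205 and 154 CPM).

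**Figure D5:**
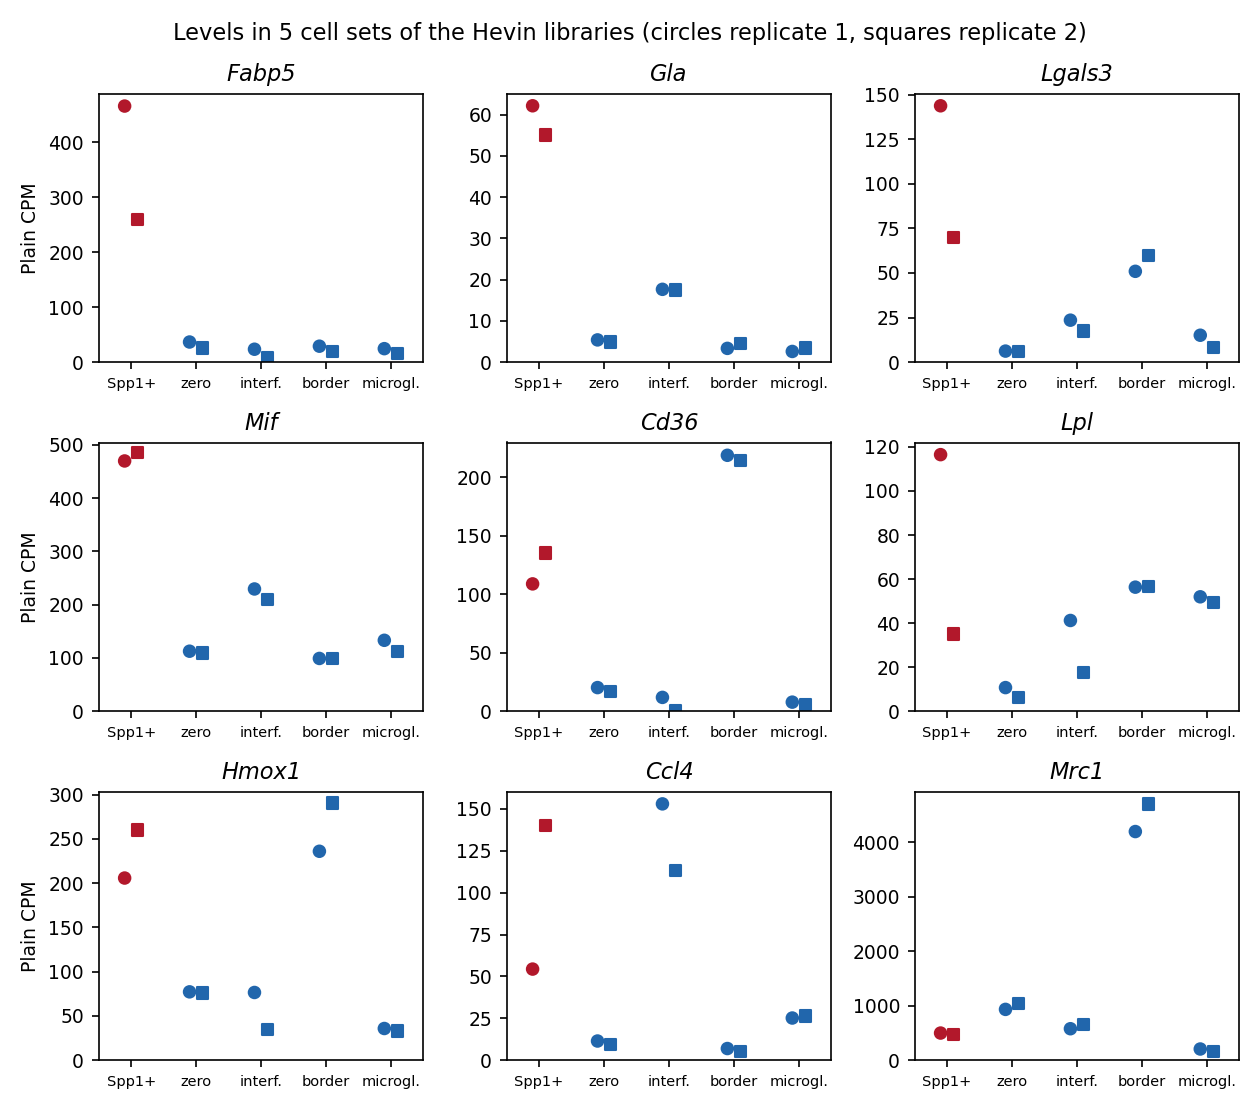
Plain CPM of 9 genes (vertical) in the Spp1-positive cells (red) and in Spp1/Gpnmb-zero Apoe-high cells, interferon Apoe-high cells, border macrophages and homeostatic microglia (blue) of Hevin replicates 1 (circles) and 2 (squares). Fabp5, Gla and Mif are highest in the Spp1-positive cells, Cd36 and Mrc1 are highest in border macrophages, and Lpl of the second replicate (35.0 CPM) is below border macrophages and microglia. For Gla the difference from interferon Apoe-high cells did not pass the test.

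Homeostatic microglia, the largest of the sets with many cells in every library, show the same genes across the viruses. Spp1 stood at 9.58 and 5.34 CPM in the Hevin libraries, against 5.69 and 4.67 CPM in the mCherry libraries (a log2 difference of 0.56 ± 0.28 SE, adjusted p = 0.79 by edgeR), and was found in 2.16% and 1.87% of cells, against 1.14% and 1.20%, at medians of 2089 and 3257 UMIs per cell, against 3264 and 3964.5. The CPM of the viruses overlapped, while the shares of cells did not. Without Hevin replicate 1 the Spp1 difference was 0.10, and without Hevin replicate 2 it was 0.95. Gpnmb stood at 1.87 and 1.08 CPM, against 1.46 and 0.945 CPM (0.31 ± 0.39, adjusted p = 0.97), and Atf3 at 7.06 and 9.09 CPM, against 8.60 and 8.88 CPM (-0.04 ± 0.16, adjusted p = 0.99). Fabp5 (24.6 and 15.6 CPM, against 34.9 and 21.0 CPM) and Lgals3 (15.1 and 8.18 CPM, against 12.8 and 10.2 CPM) overlapped between the viruses. Apoc4, low in microglia, stood at 3.49 and 2.27 CPM, against 0.187 and 0.124 CPM, and did not pass (adjusted p = 0.059).

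Of 17149 genes tested in these microglia, 3 (0.0175%) passed an adjusted p of 0.05 and 1248 had an unadjusted p under 0.05. The number that passed depended strongly on the processing. It was 0 by edgeR with P2ry12 and Tmem119 at 3 or more UMIs, 171 by DESeq2 and 1059 with the replicate number as a block. The genes named next are those of the reported fit. Gpr65, a proton-sensing receptor (55.0 and 35.8 CPM in Hevin, against 6.59 and 7.09 CPM in mCherry libraries), and Axl (44.2 and 34.4 CPM, against 11.1 and 10.2 CPM) were higher. S100a8, a calcium-binding protein of neutrophils, was lower (5.36 and 4.83 CPM, against 41.6 and 56.0 CPM). The Hevin libraries held 8277 and 5036 Apoe-high cells, in which Axl was also found, and the mCherry libraries 30 and 21. The part of free RNA from other cells in these differences, including neutrophils for S100a8, was not tested. None of the leading genes of the Spp1-positive cells was among the 3.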

How the data were processed

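CD11b-positive cortical cells were profiled in 4 PIPseq libraries. The deposited values were the authors' unnormalized UMI counts for 32227 genes by barcode; reads were placed on mm10, according to the submitters' processing notes; for aligner, annotation, strand and cell calling the tools were not given in the sources used here. Kept barcodes had at least 500 UMIs and at most 10% mitochondrial UMIs. Cells were assigned by UMI bounds, with no clustering. Interferon Apoe-high cells had 10 or more UMIs of the 5 interferon genes and at most 7 of Spp1 and Gpnmb, and border macrophages 5 or more of the 4 border genes.

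Counts were summed per library and set and tested with edgeR 4.0.16 (quasi-likelihood, TMM, filterByExpr, Benjamini-Hochberg). Library was a block in the comparisons within Hevin libraries, and virus was the sole term in microglia. CPM are plain. Named genes were the 15 largest and 15 smallest fold changes (called, at least 10 CPM on average, sums not overlapping) and up to 4 per list; other list members named were chosen after their values were seen. On simulated counts with 20 or more per gene, 92% of 50 genes changed by 2 on the log2 scale were recovered in the main comparison, and 12% of 50 changed by 1. The simulation used a fixed spread rather than the fitted one, which was close to counting error. These shares therefore do not give the power of the reported fit. Members, lists and tests were chosen with earlier results of these data known. Alternatives covered scaling, filters, doublets (Scrublet calls or the top 5% of scores), depth, bounds, DESeq2 and each library left out. Some single genes are not reported here.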

Additional observations from a re-analysis of the deposited data

How the results depend on the processing

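Of the 125 called genes that are named or belong to a list other than the 2 added ones, 79 to 125 kept their call under each alternative other than DESeq2, leaving out a library or cell, and the 50 CPM filter, and their direction was the same throughout except that Sparc was between -0.48 and 0.023, and Siglech between -0.76 and 0.0071, on the log2 scale with a Hevin library left out. The 14 tested genes of largest increase kept their call under RLE factors, library totals, no filter, doublet removal, the depth range and Apoe bounds of 1% or 2.5%, while 10 kept it at 16 or more Spp1 and Gpnmb UMIs and 13 with these at 0.2% of UMIs or more; of the 15 largest decreases 2 and 5 kept it. Against the Spp1/Gpnmb-zero cells, 731 genes were called in the reported fit, 270 by DESeq2, 478 with the bound at 16 and 367 with no library block; DESeq2 gave an adjusted p for 4 of the 14. The cause was not tested. The share of Spp1-positive cells was 1.24% and 1.27% in Hevin replicates 1 and 2 with the bound at 4 UMIs and 0.314% and 0.318% at 16, and was 1.16% in replicate 1 with cells of 3000 UMIs or more. In microglia, 3 genes were called in the reported fit, 171 by DESeq2, 573 with no filter, 6 at a mitochondrial share of at most 5%, 0 (by edgeR) with P2ry12 and Tmem119 at 3 or more UMIs, and 111 to 208 with each library left out, where the lone library of an arm is assumed to vary like the others. On the log2 scale microglial Gpnmb was -0.042 in cells of 3000 UMIs or more and ran from -0.10 to 0.69 with a library left out, and Atf3 was 0.028 at the lower P2ry12 and Tmem119 bound, 0.029 in cells of 3000 UMIs or more and from -0.24 to 0.12 with a library left out; neither gene was called in any of these. Microglial Spp1 ran from 0.10 to 0.95 with a library left out. With the replicate number as a block, 1059 genes were called by edgeR and Spp1 was 0.55 ± 0.17 (adjusted p = 0.039). The labels tie the 2 same-numbered pairs by a number only. The replicate 1 minus replicate 2 differences of the Hevin and mCherry microglia had a correlation of 0.561 over 8609 genes. Same-numbered libraries thus varied in part alike, and the reason was not tested. The fit of cells with 4 or more Gpnmb UMIs against those with none was not run, since each sum held under 20 cells, and depth limits genes under about 20 UMIs.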
